A study of Mus musculus with 40 samples.

Results

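T helper 2 (Th2) cells of wild-type (WT) mice that had been moved for 2 days to Th1-inducing medium were compared with naive CD4 T cells, the cells from which they were grown, to see which features of naive cells stayed lost and which returned over 8 days. The comparison used 6 RNA libraries of the 40 samples in the series, 2 of switched cells (Th2-Th1, day 8) and 4 of naive cells (day 0). A further 3 WT Th2 libraries from day 6 gave the state just before the switch. All cells of these 3 groups were CD4+ T cells from the spleen of C57BL/6 mice labelled Setdb1+/+. The fit held all 18 RNA libraries, so 9 libraries of Setdb1-/- cells entered the estimate of the spread behind each p-value. With the 9 WT libraries alone, 9363 genes differed between day 8 and naive, against 10159. The naive cells were not cultured. The Th2 cells had been stimulated for 3 days through coated anti-CD3epsilon and soluble anti-CD28 with IL-4 and a blocking antibody to IFN-gamma. They were then kept in IL-2 without the stimulating antibodies up to day 6. The Th2-Th1 cells were washed at day 6 and grown for 2 more days with IL-12 and a blocking antibody to IL-4. The switch therefore changed the cytokines and the time in culture together, and no group kept in Th2 medium to day 8 was used here, so the effects of medium and time cannot be told apart. Whether the stimulating antibodies were given again after day 6 is not stated here, so an effect of stimulation cannot be told apart from these either. The labels do not say whether libraries of a group came from separate animals or cultures, so each p-value measures the spread between these libraries, which may be technical. In bulk RNA, fewer cells of a type and less RNA per cell cannot be told apart.

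A naive T cell recirculates between blood and lymph nodes with homing receptors such as CCR7, lives on IL-7, and is held in a resting state by transcription factors such as KLF2, FOXO1, TCF-1 and LEF1. Activation through the T cell receptor switches off much of this programme, starts the cell cycle and glycolysis, and opens the helper genes chosen by the cytokines present. Th2 cells make IL-4, IL-5 and IL-13 under GATA3, and Th1 cells make IFN-gamma under T-bet. Some naive features, such as IL-7 receptor expression, are known to come back when stimulation ends, and this return marks the path to memory.

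Expression is given as the normalised read count, which is the number of reads on a gene divided by a factor for the library. The 9 WT libraries held 10.019 to 19.841 M reads on genes. When all libraries were thinned to the same depth, more genes were found in naive replicates 1 and 3 (21277 and 25556) than in naive replicates 2 and 4 (15128 and 16203) or in the 5 cultured libraries (15610 to 16462). Without those 2 libraries, 9940 genes differed between day 8 and naive, against 10159 with all 4. The share of reads on ribosomal protein genes was 2.996 to 4.107% in naive, 6.293 to 7.091% in Th2 and 2.925 to 3.103% in Th2-Th1 libraries. The label of CD4 T cell held in every library: Cd4 read 16477, 17229.7, 16939.9 and 15153 in naive replicates 1 to 4, 8626, 9239 and 10749.5 at day 6 and 20816 and 16818 at day 8. Naive and day 8 levels of Cd4 overlapped, with a log2 difference of 0.19 ± 0.13 (SE; limma, adjusted p = 0.234), and the sign of this difference turned when libraries were scaled to total reads (-0.17).

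After 8 days the cells had a transcriptome far from that of naive cells. Of 17254 tested genes, 10159 (58.9%) differed between Th2-Th1 and naive cells at an adjusted p under 0.05 (limma), 5287 higher (30.6%) and 4872 lower (28.2%). A change of at least 2-fold, on the log2(value + 1) scale used throughout, was called for 3758 genes higher (21.8%) and 3327 lower (19.3%), and in 3675 and 3180 of them the libraries of the 2 groups did not overlap. The split between higher and lower calls depends on the scaling: with libraries scaled to total reads, 39.4% of the called genes were higher, against 52% with the deposited factors, and the median difference over all tested genes moved from -0.08 to -0.41.

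Of the genes lost by day 6, 54.1% were still lost at day 8 and 14.9% had come back under the rules below. At day 6, 3893 genes (22.6% of those tested) were lower than in naive cells by at least 2-fold and 4118 (23.9%) were higher, and these are called lost and gained below. Of the 3893 lost genes, 2106 (54.1%) were still lower by at least 2-fold at day 8. Another 582 (14.9%) had come back, meaning that they were higher at day 8 than at day 6 and that the 95% interval of their difference from naive lay within 2-fold. A further 51 (1.31%) had passed above the naive level by at least 2-fold, and 1154 (29.6%) could not be placed. Of these 1154, 585 were higher at day 8 than at day 6, and 338 were still called different from naive. Their median log2 difference from naive moved from -2.10 at day 6 to -0.80 at day 8. Coming back needed a narrow interval, which being still lost did not. The still lost genes had a median log2 difference from naive of -2.47 at day 6 and -2.44 at day 8. For the genes that came back, the median was -1.35 at day 6 and -0.17 at day 8, and 209 of the 582 were still called different from naive. Among the 4118 gained genes, 2488 (60.4%) were still gained, 538 (13.1%) had come back and 111 (2.7%) had dropped below naive by at least 2-fold. Another 981 (23.8%) could not be placed. Of the 538, 212 were still called different from naive, 162 of them higher. With scaling to total reads, 5543 genes were lost at day 6, of which 3206 were still lost and 913 had come back, 351 of them among the 582. Both differences use the same naive libraries, so these counts describe the classes and carry no test of their own. Against Th2 cells, 4444 genes (25.8%) were higher and 4140 (24%) lower at day 8. The plot of tested genes by class shows these groups together.

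**Figure D1:**
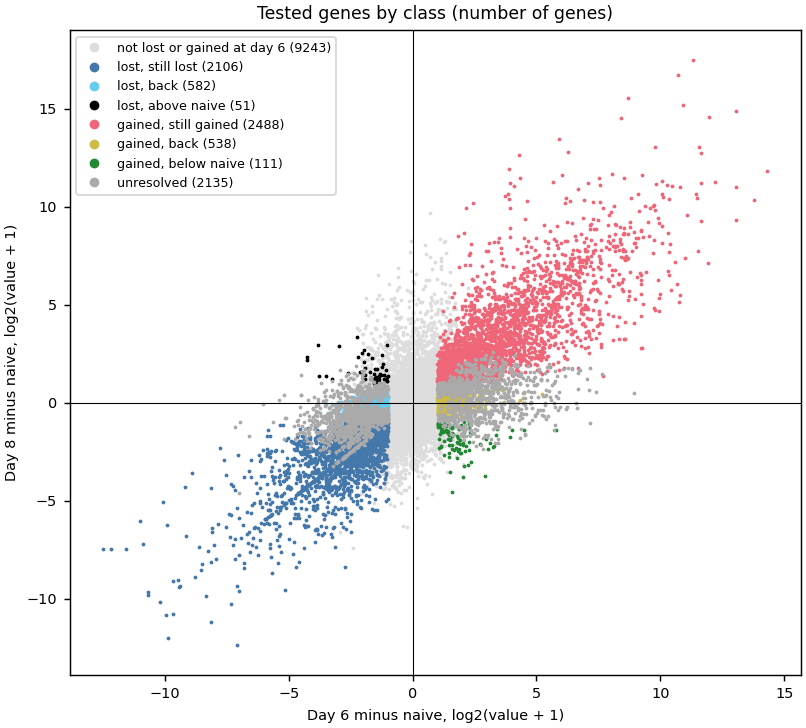
Each point is 1 of 17254 tested genes, placed by its log2(value + 1) difference from naive WT cells in Th2 WT cells at day 6 (horizontal) and in Th2-Th1 WT cells at day 8 (vertical), and coloured by class. The 2106 still lost genes fill the lower left and the 2488 still gained genes the upper right, while the 582 genes that came back lie along the horizontal line at 0; both axes share the naive libraries.

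Receptors that carry naive T cells through lymph nodes were lower at day 8. All 12 members of the homing and recirculation list passed the filter, and 11 were called lower than in naive cells and none higher, with a median log2 difference of -2.88 against -0.08 over all tested genes. At day 6 the median had been -1.03. Over all tested genes, 28.2% were called lower at day 8 and 30.6% higher, and these shares apply to the counts of each later list.

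Ccr7, the receptor that draws T cells into lymph nodes, fell mainly after day 6. It read 4567, 4402, 3643 and 4749 in naive replicates 1 to 4, 2459.9, 2585 and 2248 at day 6 and 222 and 230.0 at day 8, so the means were 56.0% and 5.21% of the naive mean and no groups overlapped. The log2 difference from naive was -0.83 ± 0.11 (SE) at day 6 and -4.25 ± 0.13 at day 8, and the fall between day 6 and day 8 was called (log2 -3.42 ± 0.13, limma, adjusted p = 5.3e-13). S1pr1, the sphingosine 1-phosphate receptor that lets T cells leave lymph nodes, read 12029.8, 9977, 10936 and 12488, then 5154, 4862 and 5271, then 1299 and 975. Its groups did not overlap at any step, and the log2 difference at day 8 was -3.33 ± 0.13 (limma, adjusted p = 4.95e-14). The related receptor S1pr4 fell by day 8 as well, with a log2 difference of -1.95 ± 0.18.

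Integrins of the list did not share 1 time course. Itga6, the alpha 6 chain of laminin receptors, was at 5496 ± 102 in naive cells (SD, n = 4), 451 ± 33.4 at day 6 (n = 3) and 236 ± 36.2 at day 8 (n = 2). Itga4, the alpha 4 chain used to enter gut and inflamed tissue, read 7639, 8203, 7766 and 8300.5 in naive cells, 196, 230.1 and 237 at day 6 and 769 and 1012 at day 8. It rose between day 6 and day 8 (log2 2.00 ± 0.24, limma, adjusted p = 1.29e-06) and was still lost at day 8, at a log2 difference of -3.17 ± 0.23 from naive. Its partner chain Itgb7 was within 2-fold of naive at day 6 (log2 -0.88 ± 0.12) and was lower by -2.94 ± 0.14 at day 8. Cxcr4, a chemokine receptor for marrow and lymphoid stroma, varied in naive cells, with 1226, 3665, 2613 and 719.9 in replicates 1 to 4. It was gained at day 6, at 8170.1, 6816 and 7863, and below naive at day 8, at 387 and 357.

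B cell markers also fell from naive to cultured cells, and those of other cell types did not all do so. The summed level of 11 tested B cell markers was 5040 to 6978 in naive, 341 to 454 in Th2 and 107 to 147 in Th2-Th1 libraries, most of it from Ighm, the immunoglobulin heavy chain, which was at 5306 ± 998 in naive cells. Of the 11, 7 were called lower at day 8 and 7 were at 0 in both day 8 libraries. B cells express some homing receptor genes as well, and the part of these cells in the fall of the homing list was not tested. The summed level of 12 myeloid and dendritic markers, of which 8 were tested, was 480 to 560 in naive and 1944 to 2265 in Th2-Th1 libraries. Most of it came from Cst3, the protease inhibitor cystatin C. Of the 8 tested, 3 were called higher and 3 lower at day 8. Lyz2 and S100a9 were at 0 in both day 8 libraries, while Cd14 had a mean of 14.1 at day 8 against 2.72 in naive cells. The 8 CD8 T cell and NK markers, of which 5 were tested, summed to 1135 to 1395 in naive and 6219 to 10120 in Th2-Th1 libraries. Gzma made up most of the sum in Th2-Th1 libraries. At day 8 Cd8a was at 0, while Cd8b1, the other CD8 chain, had a mean of 191 against 463 in naive cells.

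The transcription factors and brakes that keep naive cells at rest were mostly lower, and nearly all of them stayed so after the switch. Of 22 listed genes, 19 were called lower at day 8 and 1 higher, with a median log2 difference of -1.97. At day 6, 16 of them had been lost, and of these 14 were still lost, 1 was above naive and 1 could not be placed. Tcf7, which encodes TCF-1, the factor of naive and stem-like T cells, read 13694, 15823, 12718 and 13875 in naive cells, 131, 104 and 94.8 at day 6 and 17.7 and 16.3 at day 8. The 3 groups were apart at each step, and the log2 difference at day 8 was -9.60 ± 0.22 (limma, adjusted p = 6.48e-17). Lef1, its close relative, fell less, from 10312 ± 1842 (SD, n = 4) to 1473 ± 92.9 at day 6 and 886 ± 22 at day 8 (n = 2; log2 -3.52 ± 0.19).

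Klf2, the factor that switches on S1pr1, read 2294, 3104, 2513 and 2050.1 in naive cells, 149, 197 and 257 at day 6 and 27.2 and 17.4 at day 8. No cultured library came near a naive one, and the log2 difference at day 8 was -6.76 ± 0.33 (limma, adjusted p = 1.25e-12). Klf3 was almost silent at both later times, at 12.1, 5.57 and 0 at day 6 and 14.2 and 2.32 at day 8 against 1422, 1260.3, 1325 and 1430.3 in naive cells. Id3, an inhibitor of E proteins, read 538, 637, 583 and 654 in naive cells, 105, 68.7 and 105 at day 6 and 0 and 2.32 at day 8, so it went on falling after day 6, to 2 reads over both day 8 libraries. Pik3ip1, a brake on PI3 kinase, went from 3124 ± 272 (SD, n = 4) to 1004 ± 109.7 at day 6 and 72.7 ± 20.7 at day 8, with a log2 difference between day 8 and day 6 of -3.79 ± 0.22.

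Forkhead factors showed little or only a small return. Foxo1, which drives Klf2 and Il7r, read 2388, 2517, 2232 and 2676 in naive cells, 415, 358 and 329 at day 6 and 424 and 397 at day 8. The day 6 and day 8 libraries lay together, with a difference of 0.17 ± 0.23 between them (log2; limma, adjusted p = 0.601), and both lay far below naive (day 8 log2 -2.57 ± 0.22, limma, adjusted p = 4.73e-09). Foxp1, a factor of naive quiescence, read 7680.2, 7732, 7720.4 and 8011, then 256, 232 and 229.5, then 347 and 483. It rose a little after day 6 (log2 0.78 ± 0.14, adjusted p = 0.000126, limma) and stood at 5.33% of its naive level. Bach2, a repressor of effector genes, was lower by -1.89 ± 0.29 at day 8 and by -1.73 ± 0.25 at day 6.

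Some genes of the same list did not follow the early loss. Satb1, a chromatin organiser of T cells, read 21310.4, 19789, 19591 and 20508 in naive cells and 19373, 19593 and 23076 at day 6, where the groups overlapped. At day 8 it was slightly lower, at 15998 and 13006 (log2 -0.49 ± 0.13, limma, adjusted p = 0.00319), a call that was lost without day 8 replicate 2 (adjusted p = 0.0988). Cdkn1b, the cell cycle inhibitor p27, was at 5410.4 ± 277 in naive cells (SD, n = 4), 6110.2 ± 224 at day 6 and 1579.7 ± 108 at day 8, so its fall of -1.95 ± 0.15 on the log2 scale came between day 6 and day 8. Slfn2, which is needed for T cell quiescence, moved the other way: it read 21607, 21112, 23427 and 19078 in naive cells, 3087, 3873 and 3515 at day 6 and 59553 and 60704 at day 8. All naive libraries lay between the day 6 and day 8 libraries, and the day 8 level was 2.82 times the naive one (limma, adjusted p = 2.61e-07).

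**Figure D2:**
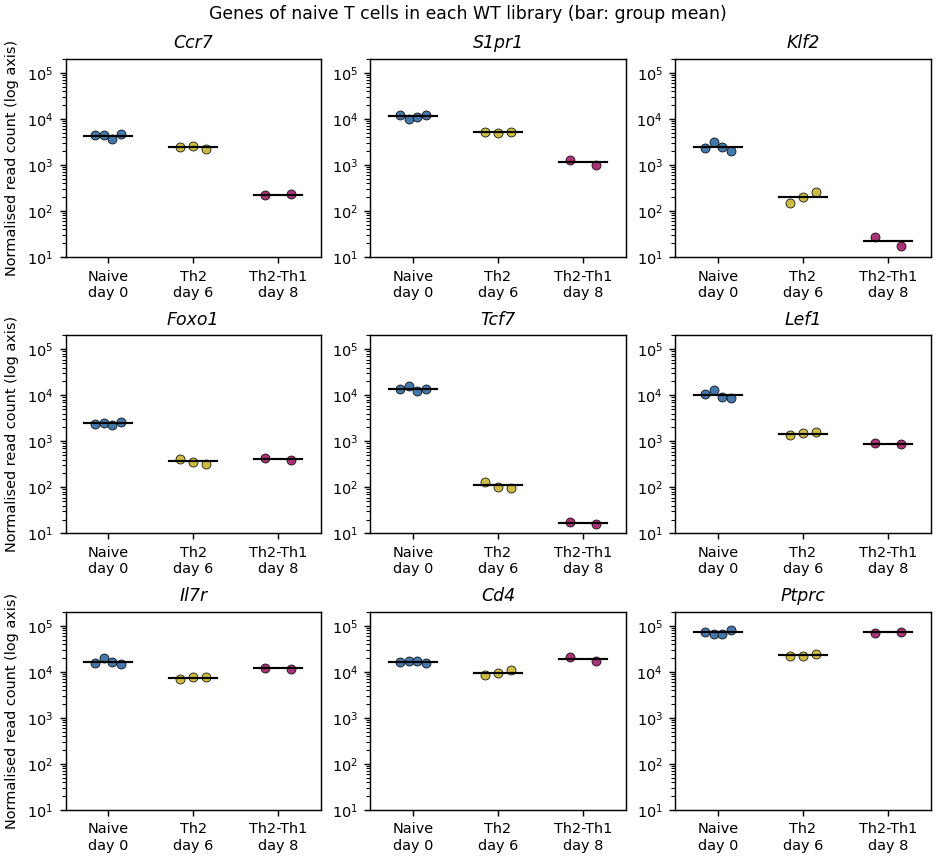
Normalised read count on a log axis of 9 genes in each naive WT (day 0, n = 4), Th2 WT (day 6, n = 3) and Th2-Th1 WT (day 8, n = 2) library, with a bar at the group mean. Klf2 and Tcf7 step down at each time, Ccr7 falls mainly after day 6, Il7r rises part of the way back, and the day 8 points of Cd4 and Ptprc overlap the range of the naive ones.

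Surface receptors of naive T cells were lower too, with the IL-7 receptor as an exception in size. In this list of 20 genes, 17 were called lower at day 8 and 1 higher, with a median log2 difference of -3.20. Of 14 lost at day 6, 13 were still lost and 1 had come back. That 1 was Il7r, the receptor chain for the survival cytokine IL-7, which read 15595, 19423, 16223 and 14944 in naive cells, 6837, 7719 and 7586 at day 6 and 12347 and 11246 at day 8. Its day 8 libraries lay between those of day 6 and those of naive cells without overlap. The log2 difference from naive was -1.16 ± 0.18 at day 6 and -0.48 ± 0.20 at day 8 (limma, adjusted p = 0.0453), and the rise from day 6 was called (adjusted p = 0.0116, limma). The remaining deficit is close to the threshold: its call was lost when any of 8 of the 9 WT libraries was left out, at adjusted p-values of 0.0520 to 0.213 (limma), and with naive replicates 2 and 4 alone (0.0794).

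Other receptors came back in small part. Cd27, a costimulatory receptor, read 5718, 6818, 6247 and 5509.7 in naive cells, 317, 299 and 501 at day 6 and 1013 and 1161 at day 8, a rise of 1.58 ± 0.21 on the log2 scale from day 6 that left a log2 difference of -2.48 ± 0.20 from naive. Actn1, which encodes an actin cross-linking protein, was at 7779.8 ± 467 in naive cells (SD, n = 4), 159 ± 25.7 at day 6 and 514 ± 46.6 at day 8. Cd28, the main costimulatory receptor, was the only member called higher, at 16253 and 18947 at day 8 against 7725, 7952, 6849 and 8787 in naive cells (log2 1.17 ± 0.10). Cd5, a brake on T cell receptor signals, was near its naive level at day 8, with a log2 difference of -0.04 ± 0.10 and a 95% interval of -0.24 to 0.16, though scaling to total reads gave -0.40. Bcl2, which protects cells from death, was gained at day 6 and back at day 8, at 5764 ± 1116, 13402 ± 808 and 4430.5 ± 657 (SD) in order of time.

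Several of the 12 genes with the largest falls were near silence at day 8. Nsg2, a gene of vesicle traffic, read 11269, 9502, 9556 and 8713 in naive cells, 38.3, 122 and 74.8 at day 6 and 0 and 2.32 at day 8 (limma, adjusted p = 4.76e-14). Ms4a4b, a membrane protein of naive T cells, read 5527, 5548, 5595 and 7315 in naive cells, 4.03, 1.86 and 17.5 at day 6 and 1.18 and 0 at day 8. Both genes were down to 2 reads or fewer over the day 8 libraries. Slc16a5, a monocarboxylate transporter, read 1015, 1095, 1211 and 1345 in naive cells and 0 in all 5 cultured libraries, so it was at least 332-fold lower at day 8 against a floor of 3 reads per library. Atp1b1, a sodium pump subunit, read 2198, 2508, 2310.3 and 2391 in naive cells, 14.1, 3.71 and 7.48 at day 6 and 0 in both day 8 libraries, at least 669-fold lower. Txk, a Tec family kinase, and Tox, a nuclear factor of thymic development, were at 1 read or none in each day 8 library against 2598 ± 175 and 973 ± 111 in naive cells (SD, n = 4).

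Genes of the T cell receptor complex differed in their course. At day 6, 4 of the 13 tested had been lost and 2 gained, and of the 4 lost, 3 came back and 1 was still lost. At day 8, 6 were called higher than in naive cells and 5 lower, against 30.6 and 28.2% of all tested genes. The median was 0.19. With scaling to total reads, 3 were higher and 6 lower, with a median of -0.17. Ptprc, which encodes the phosphatase CD45, read 74778, 65203, 67164 and 81036 in naive cells, 22361, 22261 and 24071 at day 6 and 70236 and 74229 at day 8. The day 8 libraries lay inside the naive range, and the 95% interval of the log2 difference was -0.22 to 0.24, but with scaling to total reads the difference was -0.35 and was called (adjusted p = 0.0108, limma). Cd3g, a chain of the receptor complex, was lost at day 6 at 15364, 15724 and 14092 and at day 8 stood at 47756 and 45399 against 37353, 36583, 40706 and 33286 in naive cells. Cd3e, another chain of the same complex, read 2086, 2633, 2165 and 2299 in naive cells, 490.0, 562 and 644 at day 6 and 940.2 and 958 at day 8. It rose after day 6 (log2 0.76 ± 0.24, limma, adjusted p = 0.0118) and was still lost (log2 -1.27 ± 0.22). Zap70, the kinase that the complex recruits, was gained at day 6 and still gained at day 8 (log2 1.98 ± 0.12).

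Genes that returned to the naive level or above it included several outside the T cell receptor complex. Fasl, the death ligand, read 452, 375, 339 and 423 in naive cells, 46.4, 31.5 and 57.4 at day 6 and 413 and 324 at day 8. Its day 8 libraries lay at the naive level, with a log2 difference of -0.11 ± 0.34 and an interval of -0.81 to 0.60. Trps1, a GATA family repressor, read 309, 369, 313 and 399.6 in naive cells, 14.1, 46.4 and 22.5 at day 6 and 829 and 922 at day 8, which was above naive by 1.34 ± 0.29 on the log2 scale (limma, adjusted p = 0.000615). Nolc1, a nucleolar protein of ribosome synthesis, went from 2279 ± 179.7 (SD, n = 4) to 799 ± 147 and then 5513 ± 824 (n = 2). Ggct, an enzyme of glutathione breakdown, went from 558 ± 92.4 to 119 ± 18.5 and then 2792 ± 323.

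Interferon-stimulated genes, which T cells hold at a tonic level in the body, mostly rose from day 6 to day 8, and at day 8 some were above and others below the naive level. Many share a promoter element, the interferon-stimulated response element, bound by complexes of STAT and IRF proteins. The following stretches of 100 bases, from RefSeq on GRCm38.p6, show 6 of the 13 members found to carry the core of that element, GAAA, any 2 bases and GAAA again, in their promoter. Capitals mark each match, and a match on the other strand appears as TTTC, 2 bases and TTTC; overlapping matches are marked as 1 run.
Bst2 chr8:71537548-71537647: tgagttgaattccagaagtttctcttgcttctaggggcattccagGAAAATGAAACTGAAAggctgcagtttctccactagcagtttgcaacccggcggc
Ifit1 chr19:34640740-34640839: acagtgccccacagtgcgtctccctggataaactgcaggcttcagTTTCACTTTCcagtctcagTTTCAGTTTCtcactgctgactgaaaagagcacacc
Ifit3 chr19:34583328-34583427: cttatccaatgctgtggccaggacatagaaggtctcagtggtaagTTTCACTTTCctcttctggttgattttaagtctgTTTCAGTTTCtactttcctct
Rsad2 chr12:26456518-26456617: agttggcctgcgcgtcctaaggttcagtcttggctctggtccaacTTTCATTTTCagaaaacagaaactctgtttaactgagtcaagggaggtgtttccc
Stat2 chr10:128270248-128270347: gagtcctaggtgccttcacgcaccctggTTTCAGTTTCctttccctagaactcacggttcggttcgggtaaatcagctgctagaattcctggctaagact
Trim30a chr7:104465194-104465293: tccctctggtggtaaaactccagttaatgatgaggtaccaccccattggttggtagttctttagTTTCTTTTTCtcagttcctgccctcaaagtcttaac
Bst2, Rsad2 and Trim30a are shown on the minus strand and Ifit1, Ifit3 and Stat2 on the plus strand, each 5′ to 3′ in the direction of its gene. Ifit1 and Ifit3 each hold 2 matches, and Bst2 holds 2 that overlap. Of the 28 members, 21 had a promoter of 300 bases in the table, and 13 of these held the core on either strand, against 943 of 27025 promoters (3.49%) in the whole table. Of the 21, 18 had a peak of open chromatin in Th2 cells within the promoter, as did 12 of the 13 with the core. The share over all promoters is not given here, so these counts mark no trait of the list. Within 5 kb of the gene, 91.3% of all tested genes had such a peak. The 21 cover still lost, returned and unchanged members alike: the core was in 4 of 8 still lost, in 2 of 3 that came back and in 4 of 5 that were not changed at day 6. A match is a description of letters and shows neither binding nor use.

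At day 6, 22 of the 28 members had been lost, with a median log2 difference of -1.96 from naive. At day 8 the median was -0.40 (-0.76 with scaling to total reads). Of the 22, 11 were still lost, 5 had come back, 3 were above naive and 3 could not be placed. Over all lost genes these shares were 54.1, 14.9, 1.31 and 29.6%, so the still lost share of the list was near that of all lost genes. Between day 6 and day 8, 24 members rose and 1 fell, against 25.8 and 24% of all tested genes. Compared with naive cells, 13 members were called lower and 9 higher at day 8, against 28.2 and 30.6% of all tested genes. The 2 day 8 libraries differed in these genes: 27 of 28 members were higher in replicate 1 than in replicate 2, against 46.4% of all tested genes. Relative to the naive mean, the median member stood at -0.19 in replicate 1 and -0.75 in replicate 2, against -1.99 to -2.05 in the 3 day 6 libraries and -0.41 to 0.26 in the naive ones. Without replicate 1 the counts were 5 higher and 15 lower with 1 member back, and without replicate 2 they were 8 higher and 9 lower with 4 back and 7 still lost.

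Members that stayed lost include effectors of the antiviral response. Ifit1, which binds foreign RNA, read 884, 1669, 2274 and 1254 in naive replicates 1 to 4, 70.6, 70.5 and 34.9 at day 6 and 377 and 186 at day 8. Ifit3, its partner, read 447, 1030.2, 1378 and 743, then 2.02, 0 and 0, then 5.91 and 6.97, and came back far less, to a log2 difference of -6.80 ± 0.56 from naive (limma, adjusted p = 2.83e-09). All cultured libraries were below all naive ones in both genes, and naive replicates 1 and 4 were below naive replicates 2 and 3. Rtp4 read 0 in all 3 day 6 libraries and 44.9 and 20.9 at day 8, against 655, 1592, 1434 and 851 in naive cells. Irf7, the factor that amplifies the interferon response, read 821, 1449, 1313 and 1054, then 64.5, 72.4 and 47.4, then 647 and 329.9, with a log2 difference of -1.29 ± 0.33 at day 8 that was not called without day 8 replicate 2 (adjusted p = 0.111, limma).

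Other members came back. Zbp1, a sensor of nucleic acids, read 753, 1543, 1371 and 1214 in naive cells, 198, 96.5 and 197 at day 6 and 1094 and 889.9 at day 8, and both day 8 libraries lay inside the naive range (log2 -0.26 ± 0.26). Stat2, which carries the interferon signal to the nucleus, read 624, 866, 898 and 897, then 371, 380.4 and 349, then 1037 and 499.6, with replicate 1 above and replicate 2 below all naive libraries. Trim30a read 2411, 3374, 3556 and 2868, then 1000.1, 957 and 806, then 3490.3 and 2195, with the same order of the day 8 replicates. Rsad2, the antiviral enzyme viperin, was at 116, 186, 212 and 185 in naive cells and at 309 and 102 at day 8, too far apart to be placed.

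Another set of members passed the naive level. Mx1, a GTPase against viruses, read 51.1, 211, 154 and 155 in naive cells, 68.6, 81.6 and 42.4 at day 6 and 1427 and 659.9 at day 8. Both day 8 libraries were above every naive library (log2 2.93 ± 0.49, limma, adjusted p = 3.3e-05). Xaf1, which counters an inhibitor of cell death, was at 755 ± 291 in naive cells (SD, n = 4), 78.8 ± 35.4 at day 6 and 1684 ± 562 at day 8; without day 8 replicate 1 its rise above naive was not called (log2 0.85, adjusted p = 0.121, limma). Ifih1, the RNA sensor MDA5, read 901, 1206, 1403 and 1126, then 516, 540.0 and 571, then 3905 and 3346. Bst2, the virus tether tetherin, was within 2-fold of naive at day 6 and at day 8 read 4132 and 1929 against 516, 830.2, 519.6 and 407 in naive cells. The plot of list members over time sets this course beside the homing, quiescence and glycolysis genes.

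**Figure D3:**
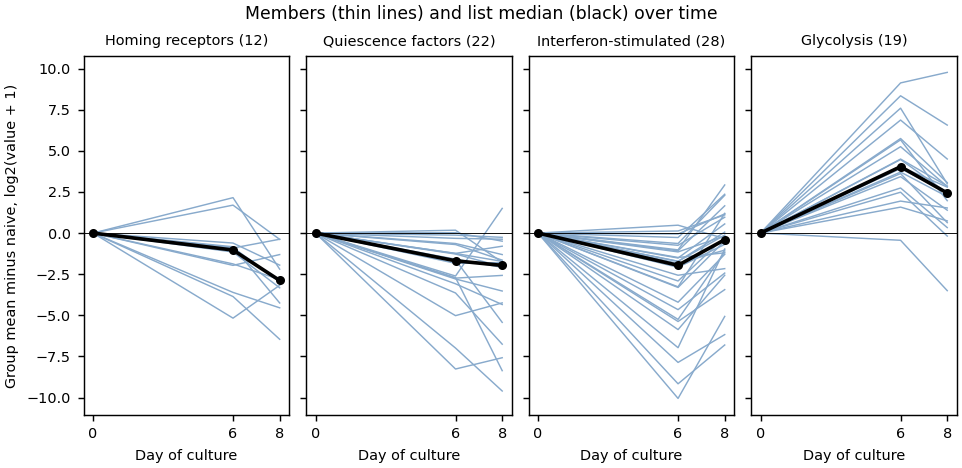
Difference from the naive WT mean in log2(value + 1) at day 6 (Th2 WT) and day 8 (Th2-Th1 WT) for each member (thin lines) and the median (black) of 4 lists; day 0 is naive and 0 by construction. The medians go from -1.03 to -2.88 for homing receptors, from -1.69 to -1.97 for quiescence factors, from -1.96 to -0.40 for interferon-stimulated genes and from 4.04 to 2.44 for glycolysis.

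Th2 genes were far above naive at day 8. In the Th2 list, 21 of 22 tested genes were called higher and 1 lower, with a median log2 difference of 7.37, also with the 3 members that were at 0 in every naive library set to their bound. Il4 read 0 in all 4 naive libraries, 2176, 1759 and 1936 at day 6 and 38062 and 36607 at day 8, at least 9265-fold higher at day 8 against a floor of 3 reads per library. Il5, the eosinophil growth factor, read 0, 0, 3.62 and 0 in naive cells, 2601, 2563 and 2310.1 at day 6 and 148123 and 164125 at day 8. Gata3, the Th2 master factor, was present in naive cells at 543, 700.0, 558 and 613 and reached 3266 and 2908 at day 8 (log2 2.36 ± 0.22, limma, adjusted p = 1.23e-08). No day 8 library came near a naive one in these genes, after 2 days with IL-4 blocked.

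The Th1 list was mixed, with 16 of 25 higher and 6 lower, against 30.6 and 28.2% of all tested genes. The median log2 difference was 4.02, and 2.28 with a pseudocount of 5, which shrinks the differences of genes with few reads. Tbx21, which encodes T-bet, read 3.74, 2.74, 9.05 and 0 in naive cells, 2.02, 0 and 0 at day 6 and 138 and 199 at day 8 (limma, adjusted p = 4.54e-06). Ifng read 0, 0, 1.81 and 0, then 4.03, 7.42 and 9.98, then 43.7 and 70.9, so both genes were higher at day 8 than in every other WT library. Il12rb2, the inducible chain of the IL-12 receptor, was already gained at day 6, at 341, 249 and 404, and stood at 415 and 518 at day 8 against 11.2, 9.59, 43.5 and 6.61 in naive cells. Stat4, which carries the IL-12 signal, went the other way: it read 2531, 2248, 2198 and 2444 in naive cells, 1143, 1073 and 993 at day 6 and 757 and 494 at day 8, with no overlap at either step and a log2 difference of -1.94 ± 0.14 from naive.

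Activation and cell cycle genes were higher at day 8. Among activation receptors and factors, 15 of 19 were called higher and 1 lower (median 3.83). Il2ra, the high-affinity chain of the IL-2 receptor, read 32.4, 15.1, 34.4 and 23.6 in naive cells, 23405, 23267 and 23949 at day 6 and 60279 and 57227 at day 8. Cd44, the adhesion receptor of experienced T cells, went from 659.9 ± 153 (SD, n = 4) to 5822 ± 573 and 8506 ± 359. All 21 DNA replication genes (median 3.48) and all 20 mitosis genes (median 6.67) were called higher than in naive cells. Mki67, the marker of cycling cells, read 88.6, 129, 281 and 99.2 in naive cells, 10950.5, 10712 and 13504 at day 6 and 26941 and 24212 at day 8 (log2 7.57 ± 0.30, limma, adjusted p = 6.46e-14). Of the replication genes 16 were higher at day 8 than at day 6 and none lower, against 25.8 and 24% of all tested genes. In the effector and memory cytoskeletal list, 14 of 16 genes were higher than in naive cells and none lower (median 4.28).

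Glycolysis genes had risen by day 6 and moved back toward naive levels by day 8. Of 19 tested, 17 were higher than in naive cells at day 8 and 1 lower. Between day 6 and day 8, 18 fell, against 24% of all tested genes. The median difference from naive was 4.04 at day 6 and 2.44 at day 8. Slc2a3, a glucose transporter, read 864, 695, 706 and 721 in naive cells, 35465, 35814 and 42826 at day 6 and 2653 and 3202 at day 8. Aldoa, which encodes aldolase, went from 3906 ± 238 (SD, n = 4) to 149118 ± 10880.3 (n = 3) and then 27873 ± 638 (n = 2), and Ldha, lactate dehydrogenase A, from 5882 ± 525 to 89069 ± 1422 and then 32113 ± 3434. Pfkm, a form of phosphofructokinase, was gained at day 6 and back at day 8, at 268 and 290.4 against 370.5, 241, 358 and 314 in naive cells. Hk2, the inducible hexokinase, kept its gain, at 5827, 5465 and 6840.4 at day 6 and 9650.1 and 9113 at day 8 against 26.2, 1.37, 14.5 and 12.3 in naive cells. Pdk1, the kinase that holds pyruvate back from mitochondria, was the member below naive, at 781 and 768 at day 8 against 10922, 8054, 7251 and 9308 in naive cells (log2 -3.50 ± 0.13, limma, adjusted p = 3.13e-14). Cholesterol synthesis genes (18 of 19 higher, 1 lower, median 1.46) and genes of amino acid transport and one-carbon metabolism (14 of 15 higher, 1 lower, median 1.66) stayed above naive.

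**Figure D4:**
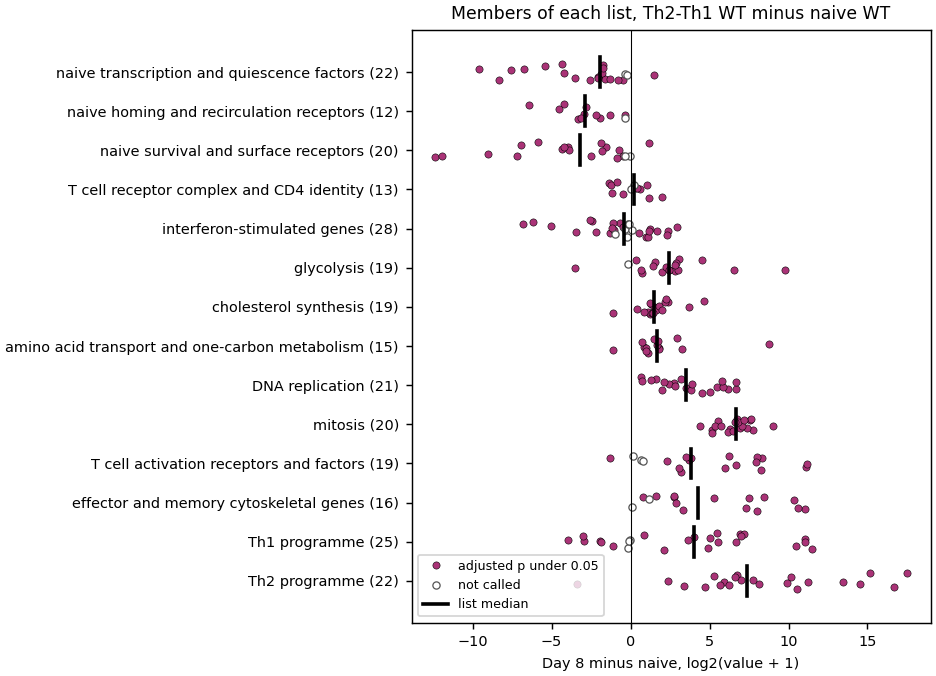
Each point is 1 tested member of a list (number of members in brackets), placed by its Th2-Th1 WT minus naive WT difference in log2(value + 1); filled points passed an adjusted p of 0.05 (limma), open points did not, and the black bar is the list median. The 3 naive lists have medians of -1.97, -2.88 and -3.20, the T cell receptor and interferon-stimulated lists lie near 0 at 0.19 and -0.40, and the other 9 lists lie between 1.46 and 7.37.

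Genes gained at day 6 that were back or below naive at day 8 form a smaller group. Of the 538 that were back, within 2-fold of naive, 162 were still called higher than in naive cells. Gna13, a G protein subunit, read 3551, 3482, 3281 and 3087 in naive cells, 25329, 25221 and 29342 at day 6 and 3579 and 3076 at day 8. The day 8 libraries lay among the naive ones, with a 95% interval of -0.25 to 0.22 around a log2 difference of -0.01 ± 0.11. Ppp1r3b, a glycogen-targeting subunit of protein phosphatase 1, read 197, 222, 255 and 250.4, then 8749, 7298 and 10036, then 315 and 317, so it was near naive but above every naive library. Nampt, an enzyme of NAD synthesis, went from 1379 ± 262 (SD, n = 4) to 12705 ± 406 and then 2110.5 ± 139. Myo6, an unconventional myosin, overshot: it read 856, 586, 556 and 402 in naive cells, 13001, 12970.5 and 13039.6 at day 6 and 193 and 245 at day 8, below every naive library (log2 -1.41 ± 0.25, limma, adjusted p = 7.03e-05). Matk, an inhibitor of Src family kinases, did the same, at 276 ± 41.0, 2126 ± 120.1 and 76.1 ± 12.4 (SD) in order of time.

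Of the 9243 genes that were neither lost nor gained at day 6, 1110 were lower and 1219 higher by at least 2-fold at day 8. Ccr7, Itgb7, S1pr4, Cdkn1b and Pdk1 belong to those that fell late, and Cd28, Tbx21 and Bst2 to those that rose late.

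The chromatin data used here are histone marks in naive and Th2 cells and open chromatin in Th2 cells, so they describe the state before the switch. H3K4me1 is a mark of enhancers. The naive H3K4me1 peaks came as 1 list from merged replicates and those of Th2 cells as 1 list from each of 2 experiments, so no test between conditions was made. Near the still lost genes, 4156 of 5697 naive H3K4me1 peaks within 5 kb were overlapped by a Th2 peak by at least 1 base, or 73.0% (95% exact Clopper-Pearson interval 71.8 to 74.1%). Near the genes that came back it was 1454 of 1709, or 85.1% (83.3 to 86.7%), and near all tested genes 25037 of 30734, or 81.5% (81.0 to 81.9%). The intervals cover counting error only, and peaks near 1 gene are not independent. With the second Th2 experiment the 3 shares were 71.8, 83.0 and 79.2%. Without the peaks that scored under the median of their own list, they were 40.9, 45.5 and 46.0%, and the intervals of the still lost genes (39.1 to 42.7%) and the returned genes (42.1 to 48.8%) then overlapped. The genes that came back had a higher median naive level (1137 against 303 normalised reads) and a longer median gene (26.8 against 22.2 kb). They were also less far below naive at day 6 (median log2 difference -1.35 against -2.47). The part of each of these in the difference was not tested.

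**Figure D5:**
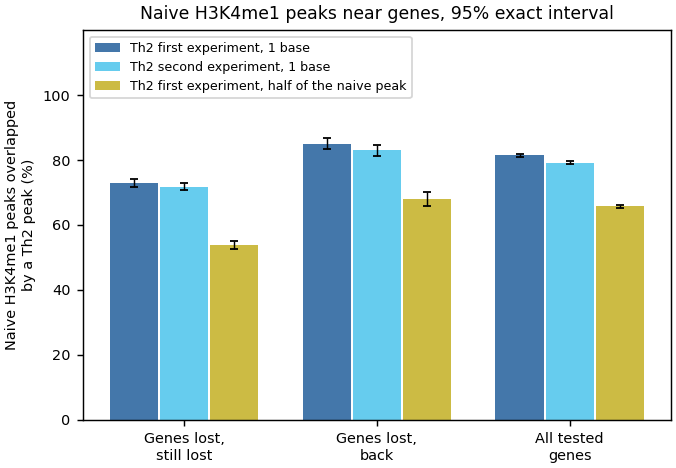
Percent of naive WT H3K4me1 peaks within 5 kb of a gene that a Th2 WT H3K4me1 peak overlaps, by class of gene, for the first Th2 experiment, the second, and a stricter rule that asks for at least 50% of the naive peak; bars start at 0 and error bars are 95% exact binomial intervals. The still lost genes have the lowest share under each setting, at 73.0, 71.8 and 53.9%, against 85.1, 83.0 and 68.0% for genes that came back.

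Peaks of active chromatin in Th2 cells were found near nearly all genes that later came back. A Th2 H3K27ac peak, a mark of active regulatory elements, lay within 5 kb of 97.9% of them, against 79.5% of the still lost genes and 81.3% of all tested genes with a position. For open chromatin the shares were 98.6, 91.2 and 91.3%. Naive H3K4me1 peaks, from before the culture, lay near 97.9, 89.3 and 84.2% of the same sets of genes. A high share near the returned genes was thus not particular to Th2 cells. These genes also had a higher median naive level than the still lost ones (1137 against 303 normalised reads). At day 6, the time of the Th2 peaks, they were already less far below naive (median log2 difference -1.35 against -2.47). Their class also needed a narrow interval, and the part of each of these in the shares was not tested. H3K9me3, the repressive mark that SETDB1 writes, lay near 31.0% of still lost genes in naive cells and 25.6% in Th2 cells, against 23.7 and 21.3% of genes that came back and 22 and 22.8% of all tested genes. Genes still gained at day 8 had such a peak in 18.1% of cases in naive cells and 26.8% in Th2 cells. These peak lists differ in size and caller settings, and no share was tested.

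Single genes of the naive programme differed in how many of their naive H3K4me1 peaks were overlapped by a Th2 peak by at least 1 base. Tcf7 (mm10, chr11:52246527-52283383) had 4 naive H3K4me1 peaks within 5 kb of the gene and Lef1 (chr3:131110297-131224357) had 5, all overlapped by a Th2 peak, although both genes were still lost at day 8. For Itga4 (chr2:79255426-79333114) it was 1 of 3, for Foxp1 (chr6:98925342-99522746) 31 of 48 and for Nsg2 (chr11:31999704-32059211) 6 of 9. For Il7r (chr15:9506159-9529941), which rose again, it was 2 of 2.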

How the data were processed

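RNA was sequenced in 18 libraries by the authors, of which 9 WT libraries carry the comparisons here. Per the labels, total RNA went into TruSeq libraries; per the submitters' processing notes, tools named are cutadapt 1.3, TopHat2 2.0.5, BWA 0.7.10, MACS2 2.1.0 and DESeq with mm10, and their parameters and order are not given in those sources. The deposited RNA values are a normalised signal, gene read counts divided by a size factor: 100% of values came out as whole reads within 0.01, and the table is deposited as 2 identical copies of 39179 genes, of which the first was used. The depth behind them was 10.019 to 19.841 M reads per WT library, and 1 read was worth 0.945 to 2.49 normalised reads. Peak lists were deposited with a score per peak that is the authors' own, used only to rank peaks within a list; per the file headers and peak names, the naive and first Th2 H3K4me1 lists and the Th2 open chromatin list come from merged replicates and the second Th2 experiment from 1 library.

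From these values log2(value + 1) was fitted with limma 3.58.1 (trend, R 4.3.3) over all 18 libraries in 6 groups, 9 of them Setdb1-/-, for the 17254 genes that reached a value of 10 in 2 or more libraries, with Benjamini-Hochberg adjustment over all of them and a threshold of 0.05; the fit was tested on simulated data. The test assumes that the 2 day 8 libraries vary like the other groups. Changed genes were placed in classes by the rules given with the counts. Alternatives were the WT libraries alone, other pseudocounts (0.5 and 5), filters, scalings and a fold of 1.5, edgeR 4.0.16 and DESeq2 1.42.0 on the recovered reads, a replicate block, and leaving out libraries. The members and the 21 gene lists were chosen with earlier results of these data known. Some results are not reported here. Genes named are a set of naive, helper and cycling genes, the 12 largest changes each way among genes whose groups do not overlap and whose mean is 50 or more, up to 5 of the largest per list and 10 per class with a mean of at least 200. Actn1, Aldoa, Bcl2, Bst2, Cd27, Cd28, Cd3g, Cd5, Cdkn1b, Cst3, Cxcr4, Ifih1, Ifit1, Irf7, Itgb7, Ldha, Pfkm, Ptprc, Rsad2, S100a9, S1pr4, Slc2a3, Stat2 and Trim30a are list members chosen after their values were seen. Gene positions matched 16169 tested genes (93.7%) in RefSeq on GRCm38.p6, the build of mm10; promoters matched 62.7%, under the 80% needed to compare classes, so promoters are described for 1 list. Setdb1-/- RNA libraries entered only the fit; other samples and peak lists were not analysed here.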

Additional observations from a re-analysis of the deposited data

Results flagged for a closer look

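In 7 of the 84 genes named, 1 of the 4 naive WT libraries stood far from the other 3 on the log2 scale, and chance alone gives about 1 in 20 such groups. In 3 of the 7 the other naive libraries were all at 0, where any read stands apart, so the number of such genes is no measure of how unlike the libraries are. Foxp1 read 8011 in naive replicate 4 against 7680 to 7732 in the others. Ms4a4b read 7315 in naive replicate 4 against 5527 to 5595. Slc2a3 read 864 in naive replicate 1 against 695 to 721, and Stat2 read 624 in naive replicate 1 against 866 to 898. In naive replicate 3, Ifng read 1.81, Il5 read 3.62 and Cyp11a1 read 9.05, with 0 in each of the other 3 naive libraries.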

How the results depend on the processing

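With 2 libraries at day 8, depth and number limit what can be called low or back, and p-values rest on a spread shared with the other groups. Scaling to total reads gave 3206 genes lost and still lost, 913 lost and back, and 324 gained and back, of which 194 were among the 538 gained and back with the deposited factors. The other counts over all tested genes stayed within 1.5 times under every alternative run, while counts within single lists moved by more in places, as given with those lists. Leaving out each library in turn gave 8495 to 10263 genes called, 1774 to 2378 still lost and 457 to 609 lost and back. Deviations of naive and day 8 libraries with the same number, 1 or 2, had a correlation of 0.037. The deviations of the 2 day 8 libraries mirror each other, so this value cannot decide whether libraries were paired. With the replicate block 9854 genes were called at day 8 against naive. Of naive H3K4me1 peaks, the shares overlapped in Th2 cells near still lost genes, returned genes and all tested genes were 40.9, 45.5 and 46.0% without peaks scoring under their own list's median and 53.9, 68.0 and 65.7% when at least 50% of the peak had to be covered. For still lost and all tested genes they were 70.6 and 80.8% over the gene alone, and for returned and all tested genes 83.0 and 79.2% with the second experiment. Of the 84 genes named, 66 kept direction and side of the threshold throughout. Changes of sign arose in genes near the naive level. With scaling to total reads the log2 difference was -0.17 for Cd4, -0.019 for Cd3g, -0.35 for Ptprc and -0.29 for Rsad2. Ptprc also turned with TMM scaling (-0.0081) and edgeR (-0.015). With naive replicates 2 and 4 alone it was 0.017 for Gna13, -0.0096 for Ptprc, 0.021 for Pfkm and -0.061 for Rsad2. Over the fits without 1 library the range was -0.28 to 0.066 for Fasl, -0.12 to 0.097 for Gna13, -0.092 to 0.012 for Cd5, -0.038 to 0.067 for Ptprc, -0.73 to 0.85 for Rsad2, -0.70 to 0.35 for Stat2 and -0.46 to 0.21 for Trim30a. The cause was not tested.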

Other observations

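Several genes with the largest gains at day 8 have no place in the lists above. Akr1c18, which encodes a progesterone-converting enzyme, read 11.2, 0, 18.1 and 0.945 in naive replicates 1 to 4, 1841, 2201 and 1726 at day 6 and 186140 and 262765 at day 8 (log2 15.55 ± 0.75, SE; limma, adjusted p = 1.1e-12). Cyp11a1, which starts steroid synthesis from cholesterol, read 0, 0, 9.05 and 0 in naive cells, 6295, 5357 and 5645 at day 6 and 11254 and 12727 at day 8. Its day 8 mean was 2.08 times that of day 6 without overlap, but the rise was not called (adjusted p = 0.227, limma). The spread behind that p-value also holds the naive libraries, where a few reads move the log2 value far. Penk, the enkephalin precursor, went from 2.92 ± 3.38 (SD, n = 4) to 896 ± 122 and then 61239 ± 4382 (n = 2). Inhba, the activin A chain, went from 2.63 ± 2.16 to 229.8 ± 22.1 and then 21045 ± 449. All 4 genes were picked among those called higher at day 8 whose day 8 libraries lay above every naive library. The call and the lack of overlap thus follow from the choice.

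Immediate early and heat shock genes, which also respond to handling of cells, were lower in 7 of 13 and higher in 4 at day 8 than in naive cells, against 28.2 and 30.6% of all tested genes. Between day 6 and day 8, 9 of the 13 fell, against 24% of all tested genes. The summed level of 8 mast cell and basophil markers, of which 3 were tested, was 17.0 to 101 in naive and 249 to 252 in day 8 libraries. Nearly all of the day 8 sum was Hdc, the histamine-forming enzyme, at 28.7 ± 16.6 in naive cells (SD, n = 4) and 240.1 ± 7.13 at day 8 (n = 2). In the CD8 T cell and NK list 3 of 5 genes were lower and 1 higher, the last being Gzma, at 35.0 ± 15 in naive cells, 12223 ± 1791 at day 6 and 7937 ± 2777 at day 8.
Of Treg genes 6 of 9 were higher and 2 lower, of myeloid and dendritic markers 3 of 8 each way, and of erythroid and platelet markers 3 of 4 were lower. Over all tested genes 30.6% were higher and 28.2% lower, and the myeloid and dendritic counts lie near these shares. The part of other cells in the results was not tested.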
